A study of Mus musculus with 8 samples.

Results

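The genes described here are 9 transcription factors of the surface ectoderm, *Tfap2a*, *Tfap2c*, *Dlx3*, *Grhl1*, *Grhl2*, *Grhl3*, *Ovol1*, *Ovol2* and *Trp63*. They were chosen by symbol from the 48526 genes of the count table, and all 9 were found. The 8 libraries were made from polyA RNA of microdissected heart fields of wild-type C57bl6/J male embryos at stage E8.5f, with no treatment and no altered allele. Each of the embryos L29-3, L43-5, L46-8 and L49-3 gave a left and a right library, so that the 2 groups (left, n = 4, and right, n = 4) come from the same animals. The tissue reached from below the headfolds to the second somite, and was split at the midline once the heart and the back had been taken off. The study compared both sides to find asymmetric genes among cardiac precursors.

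The surface ectoderm is the epithelial sheet that covers the embryo and later forms the epidermis, the cranial placodes and the lining of the pharyngeal clefts. AP-2 factors (*Tfap2a*, *Tfap2c*) and the homeodomain factor *Dlx3* act early in non-neural ectoderm, and *Tfap2a* is also used by the neural crest. The grainyhead-like factors (*Grhl1* to *Grhl3*) control junction and barrier genes of epithelia, and *Grhl2* and *Grhl3* are needed for closure of the neural tube. *Ovol1* and *Ovol2* are zinc finger repressors that keep epithelial cells from turning on mesenchymal genes. *Trp63* encodes p63, the factor that commits simple ectoderm to a stratified epidermis. A bulk library does not tell which cells a transcript came from.

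The total count lay between 1147446 and 3520753 reads per library, and 3 reads, the limit that a count of 0 allows, stood for 0.845 to 2.64 CPM (reads of a gene scaled to a common library size). Limits and intervals of this kind cover counting error only. The sides matched their labels, since *Lefty2*, a target of NODAL on the left, was higher there by 5.56 on the log2 scale (adjusted p = 4.69e-05, edgeR). The 10 cardiomyocyte markers examined summed to 352 CPM in the left library of L49-3 and to between 1136 and 3291 CPM in the others, so that this library stood apart in heart muscle RNA. Markers that define the labelled tissue, such as *Isl1* and *Tbx1* (singled out) and *Mef2c* of the second heart field, were read in all 8 libraries.

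The study used a pair of limits for background, fewer than 5.6 normalized reads, which it set from known markers, and fewer than 20 for choosing the genes it tested. Both were applied here to counts after DESeq2 size factors. The study names DESeq2 for the higher limit only, so the lower one may have been read on another scale. By the lower limit, 5 of the 9 factors were above background in most libraries, and by the higher limit 2, *Tfap2a* and *Grhl2*. *Tfap2a*, *Grhl2* and *Dlx3* were over the lower limit in all 8 libraries, and *Tfap2c* and *Grhl3* in 6 of 8. *Grhl1* and *Ovol2* passed it in 3 libraries each, and *Ovol1* and *Trp63* in 0. No factor was called different between the left and the right heart field.

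Levels of different genes were compared per kilobase of exon (RPKM, mean over 8 libraries, with the SD between the 4 embryos). *Tfap2a* had the highest level, at 6.31 RPKM (SD 1.97). *Dlx3* followed at 3.77 (SD 1.22), *Grhl2* at 2.64 (SD 0.446), *Grhl3* at 2.02 (SD 0.792) and *Tfap2c* at 1.95 RPKM (SD 0.694). The lower levels were 1.22 RPKM for *Ovol2* (SD 0.187), 0.487 for *Grhl1* (SD 0.287), 0.224 for *Ovol1* (SD 0.155) and 0.0862 RPKM for *Trp63* (SD 0.0244). *Tfap2a* was above *Dlx3* in 8 of 8 libraries. The order within the middle of the list was not fixed, as *Dlx3* exceeded *Grhl2* in 5 of 8 libraries, *Grhl2* exceeded *Grhl3* in 4 of 8, and *Grhl3* exceeded *Tfap2c* in 5 of 8. The ranges of all neighbours in this order overlapped.

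**Figure D1:**
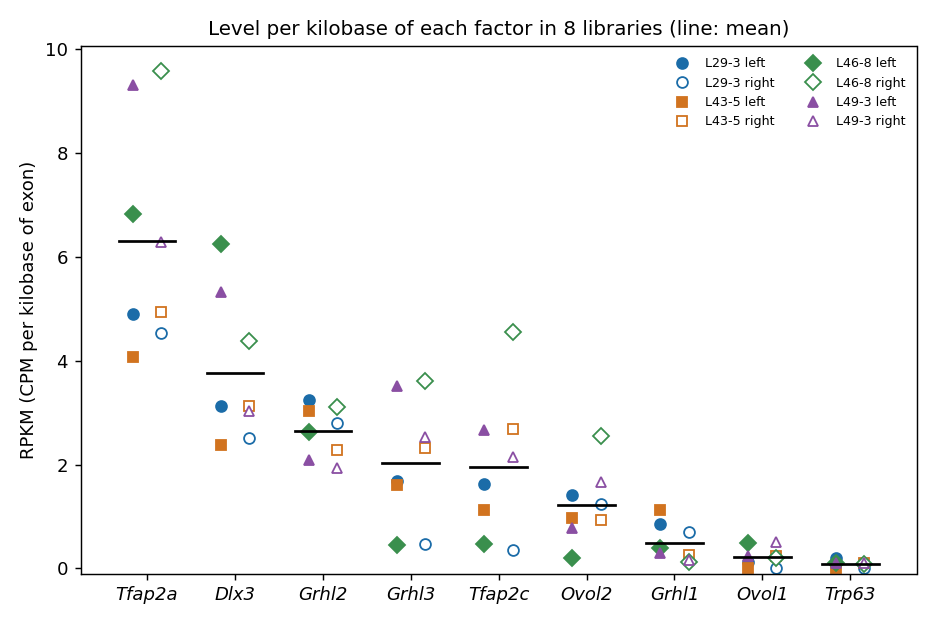
Level per kilobase of exon (RPKM, vertical axis) of the 9 factors, ordered by their mean, with 1 point per library (filled for left, open for right, shape and colour for the embryo) and a line at the mean of 8 libraries. *Tfap2a* is highest with a mean of 6.31 RPKM, the points of neighbouring genes overlap, and *Trp63* lies at the axis.

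The order by length also depends on which transcript is used. With the longest transcript in place of all exons, *Grhl2* (4.60 RPKM) moved ahead of *Dlx3*, and *Tfap2c* ahead of *Grhl3*.

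The tests of side asked whether any of these factors differed between paired heart fields. For its tests the study asked for 20 or more normalized reads in 4 or more libraries, which kept 2 of the 9 factors, *Grhl2* and *Tfap2a*, each of which reached 20 in 8 of 8 libraries. *Dlx3* reached 20 in 3 libraries and *Tfap2c* in 1, and the other 5 factors in 0. Of the tested factors, 0 of 2 had an adjusted p under 0.05 (edgeR, paired by embryo), where 0.0103% of all 9744 genes did. The study also used a looser threshold, a fold change of 1.2 or more and an unadjusted p no higher than 0.05, which 0 of 2 factors and 3.05% of all genes passed. At an unadjusted p under 0.05 alone, 0 of 2 factors passed in edgeR, limma-voom and DESeq2, where 425, 457 and 65 of the 9744 genes did. After adjustment these tools called 1, 1 and 2 genes.

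The other 7 factors were taken from a fit of all 23873 genes with a read. There, 2 of 9 had an unadjusted p under 0.05 and a fold change over 1.2 (edgeR), beside 2.88% of the genes in that fit. These were *Grhl1* (higher on the left) and *Tfap2c* (higher on the right on average, but on the left in 2 of 4 embryos). As the fit includes genes with very few reads, its share is not that of genes with like counts. The adjusted p of each of the 9 was 0.997 (edgeR). With 1 ratio of left to right for each factor and embryo, 29 of 36 had a 95% interval that included 1. Of the remaining 7, 2 lay on the left side and 5 on the right, and 4 of these 5 came from embryo L46-8. The intervals cover counting error only and were computed for the factors alone. No share over all genes therefore stands beside these counts, and whether they are unusual was not tested.

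**Figure D2:**
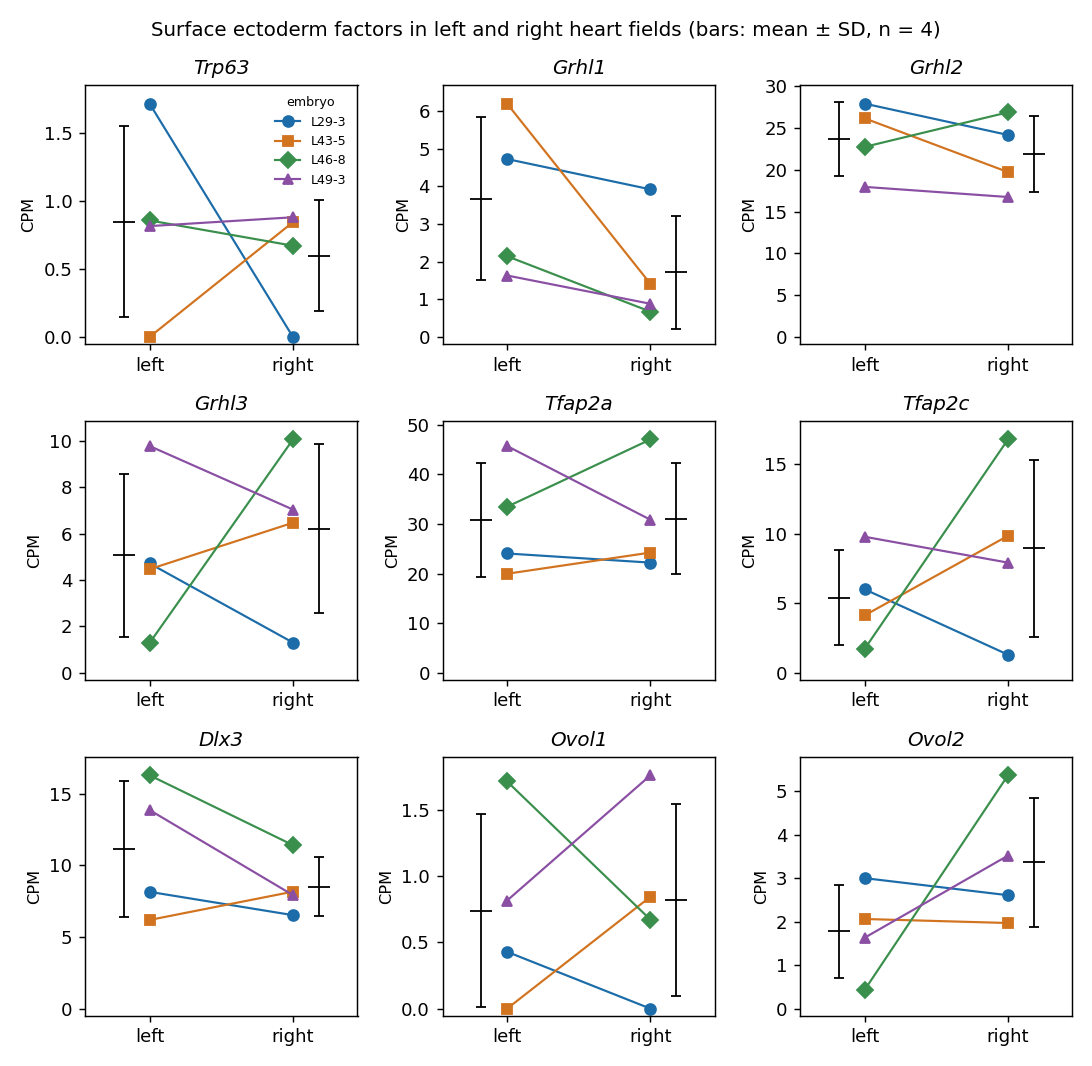
Level of each factor (CPM, vertical axes with their own scale) in the left and right heart field, with a line joining both libraries of an embryo and black bars for the mean ± SD of 4 embryos. Left and right ranges overlap for every factor, lines of *Grhl1* fall from left to right in all 4 embryos, and those of *Tfap2c* and *Grhl3* cross.

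*Tfap2a*, on the minus strand of chromosome 13 (chr13:40715302-40738376, GRCm38), was the most abundant of the factors. In the left libraries of L29-3, L43-5, L46-8 and L49-3 its level was 24.0, 19.95, 33.4 and 45.7 CPM, and in the right libraries of these embryos 22.2, 24.2, 47.0 and 30.8 CPM. The sides therefore overlapped over nearly their whole range, whereas the 4 libraries of L46-8 and L49-3 all lay above the 4 of L29-3 and L43-5. This split of the embryos was picked from these values. How many other genes split the embryos in such a way was not counted. The left libraries averaged 30.8 ± 11.4 CPM and the right libraries 31.1 ± 11.3 CPM (SD, n = 4). The log2 fold change of left over right was -0.07 (SE 0.19, adjusted p = 0.993, edgeR), and the direction differed among embryos, with left higher in 2 of 4. The exons of *Tfap2a* (4903 bases) overlap 3 antisense genes. Among these, *Gm26688* shares a stretch of 269 bases with *Tfap2a* and had 6 reads. As the strand setting of the counts is not given, the effect of this overlap on the level of *Tfap2a* was not tested.

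Embryo means of *Tfap2a* were 23.1 CPM in L29-3, 22.1 in L43-5, 40.2 in L46-8 and 38.3 CPM in L49-3. The test of embryos gave an adjusted p of 0.291 on the 9744 filtered genes (edgeR), so 0 of 2 factors were called, where 0.174% of all genes were. In the fit of all 23873 genes the adjusted p of *Tfap2a* was 0.0216 (edgeR), where 2.69% of genes were called, and no other factor was called. The call therefore depends on the filter.

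Beside this difference, the summed cardiomyocyte markers were between 1871 and 3291 CPM in the libraries of L29-3 and L43-5, and between 352 and 2182 CPM in those of L46-8 and L49-3. These ranges overlapped. Of the 8 cardiomyocyte markers that passed the filter, 1 was called among embryos, *Myh6*, the alpha myosin heavy chain (adjusted p = 0.0470, edgeR), with 21.2 to 819 CPM. *Nppa* was at 0 in 7 of 8 libraries and *Actc1* had the most reads of the list. Their part in the *Tfap2a* difference was not tested. In bulk samples like these, fewer cells of a type and less RNA per cell cannot be told apart.

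*Dlx3* (chr11:95120119-95125296, plus strand), a factor that p63 controls in skin, had fewer reads than *Tfap2a*, and its highest level also lay in L46-8. For the embryos in the same order, it was at 8.16, 6.19, 16.3 and 13.9 CPM on the left, and at 6.53, 8.17, 11.4 and 7.93 CPM on the right. Left was higher in 3 of 4 embryos, and the ranges of the sides overlapped. The left libraries averaged 11.1 ± 4.74 CPM and the right libraries 8.51 ± 2.07 CPM (SD, n = 4). The log2 fold change was 0.28 (SE 0.30, adjusted p = 0.997, edgeR, all genes), with 157 reads in all 8 libraries together.

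Pearson's r between the log2 CPM of *Tfap2a* and *Dlx3* was 0.804 over the 8 libraries, which share 4 animals, and 0.729 to 0.941 with each embryo left out in turn. An r over 0.7 with *Tfap2a* was reached by 526 of the 9744 tested genes (itself included), and with *Dlx3* by 198. The profiles of *Tfap2a* and *Dlx3* were not the same, since in L46-8 *Tfap2a* was higher on the right and *Dlx3* on the left, and in L49-3 the right library had less *Dlx3* than the left library of L29-3. The other non-neural ectoderm genes examined varied in their own ways. *Foxi3*, a placode gene singled out after its values were seen, was at 21.2 and 23.2 CPM in the left libraries of L49-3 and L46-8 and at 5.22 CPM in the right library of L29-3. *Msx2*, the gene with the most reads in that list, was highest in the left library of L46-8 (47.6 CPM) and lowest in that of L29-3 (15.5 CPM), while *Gata3*, also singled out, stayed between 23.5 and 35.3 CPM.

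*Tfap2c* (chr2:172549593-172558622, plus strand), the AP-2 factor of early ectoderm and germ cells, differed between the sides within 3 of the 4 embryos beyond counting error. L29-3 had 14 reads on the left against 2 on the right (6.01 and 1.31 CPM), L43-5 had 12 against 35 (4.13 and 9.86 CPM), L46-8 had 4 against 25 (1.72 and 16.8 CPM), and L49-3 had 12 against 9 (9.79 and 7.93 CPM). Left was higher in 2 embryos and right in the other 2. The interval of the left to right ratio lay above 1 in L29-3 (4.60, 95% interval 1.06 to 41.7). It lay below 1 in L43-5 (0.419, 0.198 to 0.826) and in L46-8 (0.102, 0.0258 to 0.296).

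As the embryos went in opposite directions, the mean ratio was small beside its spread, with a mean log2 ratio of -0.50 and an SD of 2.05 (n = 4). The fit of all genes gave a log2 fold change of -0.78 (SE 0.35, adjusted p = 0.997, edgeR), which became -0.07 without L46-8 and -1.33 without L29-3. That SE is small beside the SD of 2.05 between embryos. Neither it nor the unadjusted p-values of this fit reflect the whole of that spread.

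*Grhl3* (chr4:135541888-135573630, minus strand), which acts in the ectoderm next to the closing neural folds, followed *Tfap2c* closely. Its left libraries had 11, 13, 3 and 12 reads (4.72, 4.47, 1.29 and 9.79 CPM in L29-3, L43-5, L46-8 and L49-3), and its right libraries 2, 23, 15 and 8 reads (1.31, 6.48, 10.1 and 7.05 CPM). The libraries with the least *Tfap2c*, right of L29-3 and left of L46-8, were also those with the least *Grhl3*, and the right library of L46-8 had the most of both. The ratio of left to right was 0.128 in L46-8 (95% interval 0.0237 to 0.451), and the intervals of the other 3 embryos included 1. The log2 fold change was -0.38 (SE 0.40, adjusted p = 0.997, edgeR, all genes), and it was 0.26 without L46-8.

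**Figure D3:**
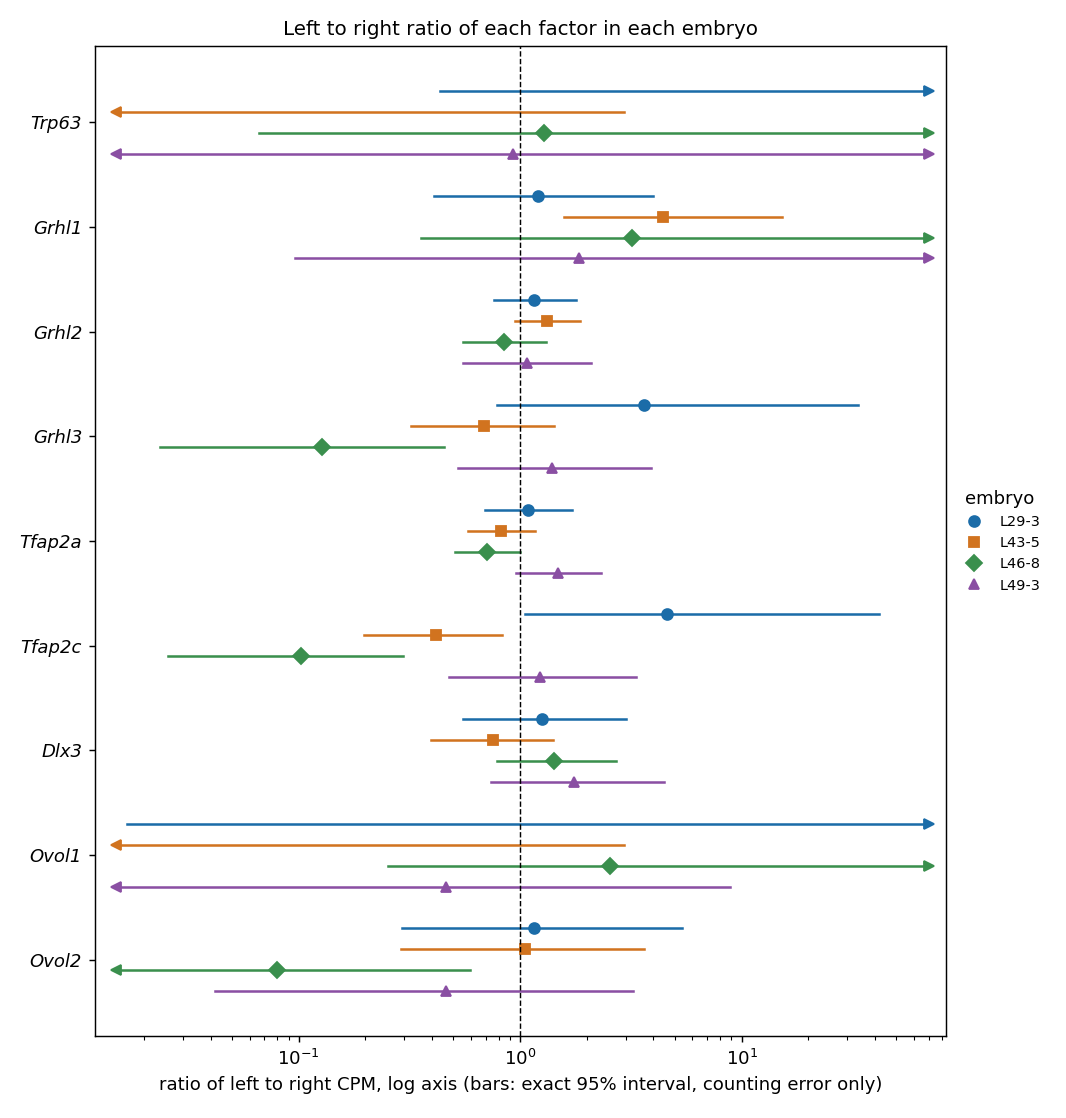
Ratio of left to right CPM (horizontal log axis, dashed line at 1) for each factor and embryo, with exact 95% intervals for counting error, where arrows mark intervals that leave the axis and a missing point marks a count of 0 on a side. *Tfap2c* in L29-3 lies right of 1 (4.60) and in L46-8 left of it (0.102), while all intervals of *Grhl2* include 1.

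Pearson's r between the log2 CPM of *Grhl3* and *Tfap2c* was 0.970 over 8 libraries, and 0.953 to 0.980 with each embryo left out. Both genes have few reads, 87 and 113 in all, and their libraries share animals and depth, so this is a description of these libraries. The pair did not go with the most abundant factor to the same degree, as r was 0.524 between *Tfap2c* and *Tfap2a* and -0.209 between *Tfap2c* and *Grhl2*.

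*Zic2* and *Pax3*, both known from the dorsal neural tube, are given beside *Tfap2c* and *Grhl3*, and both were chosen for their profile. *Zic2*, named by its likeness to *Tfap2c* (r = 0.936 over 8 libraries), was at 31.3, 13.4, 12.4 and 54.7 CPM in the left libraries of L29-3, L43-5, L46-8 and L49-3, and at 10.4, 32.7, 55.1 and 37.9 CPM in the right libraries. *Pax3*, singled out after its values were seen, was at 21.0, 3.44, 9.86 and 39.2 CPM in the left libraries, and at 0, 21.7, 36.9 and 10.6 CPM in the right libraries. For both, the side with more was the side with more *Tfap2c* in each of the 4 embryos. As both were chosen for their profile, this match was partly built in. Of the other tested genes of the neural tube list, *Sox2* also matched in each embryo. *Sox1*, *Sox3*, *Pax6*, *Rfx4*, *Nkx6-1* and *Lin28b* did not. *Porcn*, needed for secretion of WNT ligands, was among the 10 genes most like *Tfap2c* (r = 0.953) and most like *Grhl3* (r = 0.938).

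Over the whole neural tube list, 8 of 10 genes passed the filter, and their median r was 0.553 with *Tfap2c* and 0.653 with *Grhl3*, where the median over all genes tested was 0.0021 and -0.0023. For *Tfap2c* and *Grhl3* in this order, the medians were -0.591 and -0.610 with the mesenchymal genes and -0.494 and -0.607 with the cardiomyocyte markers. With keratins and desmosome genes they were -0.652 and -0.705. The medians of the other lists lay between these and the neural tube values. The neural tube list summed to 262 to 552 CPM on the left and 313 to 588 on the right. The side with the higher sum was that with more *Tfap2c* in L29-3 (381 CPM left, 313 right), L43-5 (332 and 422) and L46-8 (262 and 389), but not in L49-3 (552 and 588). *Lin28b* had the most reads of the list (152 to 202 CPM), and *Hes5*, a target of NOTCH in neural progenitors, was at 0 in 2 libraries. By the threshold of the study, 2 of the 8 were lower on the left, *Sox1* and *Pax6*, and 0 had an adjusted p under 0.05 (edgeR), where the other 6 had an unadjusted p over 0.05. The part of neural tissue in the *Tfap2c* and *Grhl3* values was not tested.

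The cranial neural crest list, of interest because *Tfap2a* and *Tfap2c* are read in crest cells as well, summed to 232 to 501 CPM on the left and 306 to 406 on the right. Its median r was 0.329 with *Tfap2c* and -0.11 with *Tfap2a*. *Crabp1*, which binds retinoic acid, gave most of the reads (128 to 326 CPM). *Foxd3*, which had the fewest reads of the list, was at 0 in 4 libraries and reached 5.37 CPM. Among list genes singled out after their values were seen, *Sox10* was at 0.653 to 7.34 CPM, *Erbb3* at 19.3 to 34.1, *Sox9* at 31.7 to 66.9 and *Ets1* at 46.3 to 77.7 CPM, and *Sox9* and *Ets1* are also read in other tissues. *Tfap2b*, likewise singled out, is an AP-2 factor of the crest that the study used as a marker of the back, and it had 27 reads in all.

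**Figure D4:**
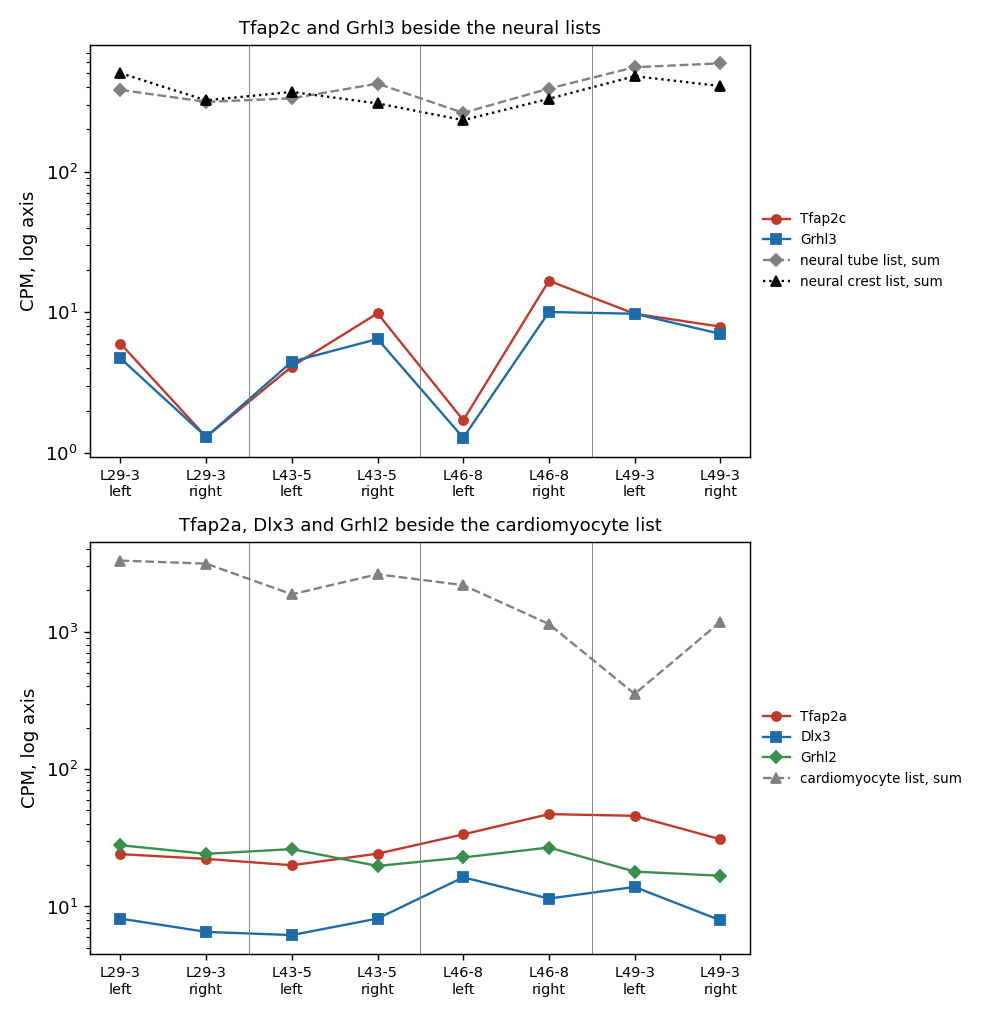
Level (CPM, vertical log axes) in the 8 libraries, ordered by embryo and side, of *Tfap2c* and *Grhl3* beside the summed neural tube and neural crest lists (top), and of *Tfap2a*, *Dlx3* and *Grhl2* beside the summed cardiomyocyte list (bottom). *Tfap2c* and *Grhl3* are lowest together in the right library of L29-3 (both 1.31 CPM) and the left library of L46-8, whereas *Grhl2* stays between 16.7 and 27.9 CPM.

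Reference promoters were looked up for factors that varied together. The RefSeq table (GRCm38.p6) held 6 promoters of 4 of the factors, *Grhl1*, *Grhl3*, *Tfap2a* and *Ovol2*, as windows of 300 bases. Each was searched on both strands for GCCNNNGGC (bound by AP-2 factors), AACNNGTT (bound by grainyhead-like factors) and CCGTTA (bound by OVOL factors), where N is any base. These letters occur in 16.6%, 4.2% and 2.76% of 32851 promoters of the same length. The only match was an AP-2 motif that starts 82 bases before the start site of *Grhl1*. The bases upstream of *Grhl1* and *Grhl3* are shown, the former for this match (in capitals) and the latter because it alone of *Tfap2c* and *Grhl3* had an entry.

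*Grhl1*, chr12:24572037-24572282, plus strand: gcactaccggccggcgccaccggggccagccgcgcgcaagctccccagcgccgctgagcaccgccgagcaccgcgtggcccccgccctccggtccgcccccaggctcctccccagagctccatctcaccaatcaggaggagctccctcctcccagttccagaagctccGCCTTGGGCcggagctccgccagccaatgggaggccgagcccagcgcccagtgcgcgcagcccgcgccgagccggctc
*Grhl3*, chr4:135573633-135573882, minus strand: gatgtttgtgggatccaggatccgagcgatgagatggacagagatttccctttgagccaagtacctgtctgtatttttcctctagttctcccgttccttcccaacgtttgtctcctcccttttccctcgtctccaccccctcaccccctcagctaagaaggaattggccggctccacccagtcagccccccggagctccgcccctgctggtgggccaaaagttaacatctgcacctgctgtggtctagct

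The windows differ in base content, with 75.3% G and C for *Grhl1* and 58.3% for *Grhl3*. The *Grhl3* window held none of the searched motifs, which says only that these letters do not occur in it.

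*Grhl2* (chr15:37233036-37363569, plus strand) was the steadiest of the factors. The left libraries held 27.9, 26.1, 22.7 and 17.9 CPM and the right libraries 24.2, 19.7, 26.9 and 16.7 CPM, again in the order L29-3, L43-5, L46-8 and L49-3. The highest library was 1.67 times the lowest, against 2.36 times for *Tfap2a* and 2.63 times for *Dlx3*. For *Tfap2c* and *Grhl3*, which have fewer reads than these, it was 12.9 and 7.83 times. Left was higher in 3 of 4 embryos, and the ranges of the sides overlapped. The left libraries averaged 23.7 ± 4.38 CPM and the right libraries 21.9 ± 4.51 CPM (SD, n = 4). The log2 fold change of 0.14 was smaller than its error (SE 0.19, adjusted p = 0.987, edgeR).

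The r of *Grhl2* was -0.283 with *Tfap2a* and -0.283 with *Grhl3* (8 libraries). The value for *Tfap2a* hung on single embryos, as it was 0.131 without L49-3 and -0.729 without L46-8. The exons of *Grhl2* share stretches of up to 206 bases, at 90% identity or more, with 190 other genes, out of 8613 exon bases. These include the antisense gene *Gm16136*, which had 32 reads and whose exons overlap those of *Grhl2* by 169 bases. Whether the counts used the strand is not given in the sources used here.

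*Grhl1* (chr12:24572283-24617391, plus strand), a regulator of desmosomal cadherins in skin, had 49 reads in all. In the same order of embryos, 11, 18, 5 and 2 reads fell on the left and 6, 5, 1 and 1 on the right. Left was higher in 4 of 4 embryos, at 3.67 ± 2.16 CPM against 1.72 ± 1.497 CPM (SD, n = 4), but the ranges overlapped (1.63 to 6.19 and 0.672 to 3.92 CPM). The interval of the ratio excluded 1 in L43-5 alone (4.40, 95% interval 1.57 to 15.2). The log2 fold change was 1.25 (SE 0.59, adjusted p = 0.997, edgeR, all genes) and 0.70 without L43-5. It passed the threshold of the study in that fit, which is not the filtered fit the study used, and did not pass the adjusted one.

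*Ovol2* (chr2:144305175-144332146, minus strand) had 39 reads, and its exons overlap the antisense gene *1700108N11Rik* by 359 bases. The left libraries had 7, 6, 1 and 2 reads and the right libraries 4, 7, 8 and 4. The ratio of right to left was 12.5 in L46-8 (95% interval 1.68 to 556), and the intervals of the other embryos included 1. The log2 fold change was -0.79 (SE 0.62, adjusted p = 0.997, edgeR, all genes) and -0.16 without L46-8.

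*Ovol1* and *Trp63* were at the limit of detection, with 12 reads each in the 8 libraries together. *Ovol1* (chr19:5549136-5560646, minus strand) had 0 to 4 reads per library and *Trp63* (chr16:25683763-25892102, plus strand) also 0 to 4. Each was at 0 in 2 libraries and exceeded 3 reads in 1, so no difference between sides or embryos was detectable. *Ovol1* shares 692 bases with the pseudogene *Gm31166* on the other strand, to which 4 reads were assigned.

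Genes that these factors are known to control, or that mark their tissue, were taken from gene lists. No list gene had an adjusted p under 0.05 for side, and 4 had an unadjusted p under 0.05, *Snai2*, *Fn1*, *Sox1* and *Pax6* (edgeR). The counts given next use the threshold of the study. Among keratins and desmosome genes, 7 of 14 passed the filter and 0 of these 7 passed the threshold (median log2 fold change 0.10, against -0.0042 over all genes tested). The keratins of simple epithelia were abundant, with *Krt8* at 215 to 426 CPM, and they are also made in gut endoderm and early heart muscle. The keratins of stratified epidermis were low, with 0 reads of *Krt17*. Of others singled out after their values were seen, *Krt14* had 3 reads, *Krt15* 42 and *Krt5* 49, where *Trp63* had 12. The median r of the tested genes of this list was 0.546 with *Grhl2*, -0.705 with *Grhl3* and -0.652 with *Tfap2c* (8 libraries of 4 animals). It was -0.504 with *Tfap2a* and -0.345 with *Dlx3*. The cardiomyocyte list had medians of the same signs, at 0.475, -0.607, -0.494, -0.770 and -0.504 in this order of factors. The list of epithelial adhesion, splicing and proteases had a median r of 0.0447 with *Grhl2*.

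Among genes of epithelial adhesion, splicing and proteases, which foregut endoderm shares with ectoderm, 14 of 17 passed the filter and 0 of 14 the threshold (median 0.03). Their sum was narrow, between 629 and 761 CPM. *Cdh1*, E-cadherin, was at 120 to 165 CPM, and *Marveld3* had 11 reads. The foregut list summed to 139 to 183 CPM, with 7 of 10 genes tested and 0 past the threshold. *Foxa1* led it (23.8 to 54.2 CPM), and *Nkx2-1*, which defines lung and thyroid endoderm, was at 0 in 5 libraries. The share of the epithelial genes that came from either sheet was not tested.

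Among the other regulators of non-neural ectoderm and placodes, 4 of 13 passed the filter and 0 of these 4 the threshold (median 0.0075), and *Elf5* had the fewest reads, 16. Of 14 paralogues outside the group, 8 averaged under 5.6 normalized reads. *Trp73* and *Tfap2d* had 0 reads in every library, whereas *Trp53*, expressed in all cells, was at 237 to 307 CPM. The filter kept 3 of them, and 0 passed the threshold.

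Mesenchymal genes, several of which OVOL and grainyhead-like factors repress in epithelia, had between 43 reads (*Twist2*) and 34896 reads (*Fn1*). *Zeb1*, a repressor of E-cadherin singled out after its values were seen, was at 50.2 to 78.9 CPM, and *Fn1*, fibronectin, at 1792 to 2568 CPM. Of the 10, 9 were tested and 1 passed the threshold, *Snai2*, higher on the left by 0.55 on the log2 scale (adjusted p = 0.987, edgeR). The second heart field list was tested for 10 of 10 genes, of which 0 passed the threshold, with *Mef2c* the highest and *Fgf8* the lowest in reads.

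Genes with profiles most like the mean of *Grhl2* and *Tfap2a* were *Nrm*, *Prdm1*, *Spint2*, *Kdelc2*, *Gas5*, *Svbp*, *Gsk3b*, *Lactb*, *1810022K09Rik* and *Klf6*, with r from 0.896 to 0.950 over 8 libraries. The r between *Grhl2* and *Tfap2a* themselves was -0.283, so likeness to their mean is not likeness to each of them. Most of these genes are read in many tissues. Levels are given for *Spint2* and *Prdm1*, picked because they are known from epithelia. *Spint2*, a protease inhibitor of epithelia, was at 56.1 to 74.5 CPM, and *Prdm1*, a repressor found in surface ectoderm and endoderm, at 52.1 to 75.2 CPM. The gene most like each factor alone was *Syde1* for *Grhl2* (r = 0.972) and *Fbxo5* for *Tfap2a* (r = 0.944).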

How the data were processed

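Left and right heart fields of 4 embryos were measured by RNA sequencing. The authors deposited raw counts of reads per gene, made by alignment to GRCm38 with HISAT2 and counting with featureCounts after duplicates were excluded. Per the labels, the processing notes also name Subread, DESeq2 and limma 3.40.6, and the strand setting is not given in the sources used here. The column names of the table gave the embryo and side. Identifiers were matched to symbols in GENCODE vM21 (48144 of 48526). The members and lists were chosen with earlier results of these data known.

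Sides were compared with edgeR 4.0.16 (R 4.3.3, TMM, quasi-likelihood test, embryo as a block, Benjamini-Hochberg adjustment) on the 9744 genes that 4 or more libraries read at 20 or more counts after DESeq2 size factors. The embryo coefficients were tested in the same fit. Factors under the filter were read from a fit of all genes with a read, a step chosen after seeing the data, as was the likeness of single factors with at least 50 reads. Both libraries of an embryo come from 1 animal, which pairs them, and the correlation of their deviations from the side means was 0.165, 0.190, -0.016 and 0.437. No libraries were alike within sampling noise (smallest chi-square per degree of freedom 1.86). CPM used TMM factors, log values a pseudocount of 0.5 CPM, and ratios an exact conditional binomial interval (95%). Names were given to all 9 factors, to the called, highest-count and lowest-count genes of each list, and to the 10 genes most like the tested factors, and other names are marked as singled out or stand beside the check, threshold or likeness they came from. Alternatives were DESeq2 1.42.0, limma 3.58.1 (limma-voom), other normalizations and filters, no replicate block, each embryo left out, transcript length, and Spearman's rho or a pseudocount of 2 for likeness. The scripts were tested on simulated data.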

Additional observations from a re-analysis of the deposited data

Results flagged for a closer look

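No value of a factor stood apart from the other libraries of its side by Dixon's test at the 95% level in any of 18 groups of 4 libraries, where chance would flag about 5% of groups.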

How the results depend on the processing

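At an adjusted p under 0.05, no factor that could be tested was called between sides under any alternative. The filter left 2 or 3 factors to test in each of these, except that all 9 were tested with no filter, where *Grhl1* and *Tfap2c* passed the threshold of the study. With an embryo left out, 4 factors turned direction. *Tfap2a* ranged from -0.25 to 0.10 on the log2 scale (0.01 without L43-5, 0.10 without L46-8), *Trp63* from -0.82 to 1.16, *Grhl3* from -0.79 to 0.26 and *Ovol1* from -1.14 to 0.52. In the fit of all genes (edgeR), unadjusted p-values of *Grhl1* and *Tfap2c* rose over 0.05 without L43-5 or L46-8, whereas without L29-3 that of *Tfap2c* was 0.000695 (log2 fold change -1.33) and that of *Grhl1* 0.0255 (1.81), and without L49-3 they were 0.00509 and 0.0321. For *Tfap2c*, these p-values do not reflect the whole spread between embryos, whose log2 ratios had an SD of 2.05. Counts over all genes moved more. Genes with an adjusted p under 0.05 for side numbered 1, but 34 with no filter, 0 with at least 10 counts in every library, 2 with DESeq2 and 1 to 5 with an embryo left out. Without the replicate block, so that the pairing by embryo was ignored, the number was 0, and no call on a factor changed. Genes past the threshold of the study numbered 297, 687 with no filter, 59 with DESeq2 and 291 to 388 with an embryo left out. Genes called among embryos numbered 17, 641 with no filter, 9 with at least 10 counts in every library, 48 with DESeq2, 4 with limma-voom and 0 to 237 with an embryo left out (0 without L49-3, 237 without L46-8). The factors called among embryos numbered 0, and 1 with no filter, *Tfap2a*. The cause of these shifts was not tested. Of the 10 genes most like the tested factors, 3 were shared under Spearman's rho and 10 with a pseudocount of 2. Depth limits the low factors, since 3 reads were 0.845 to 2.64 CPM.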
